A study of Mus musculus with 12 samples.

Results

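Distal regions without E-box or AP-1 were the genomic regions that lay outside promoters, were bound in BMAL1-ChIP-seq of mouse adult fibroblasts (MAFs), and held neither of the 2 motifs that are usual at such sites. They were chosen by the peak calls of 6 libraries and by their own sequence. Peaks that overlapped by at least 1 bp were merged, and a region was kept when it was called in at least 2 libraries, its midpoint lay more than 1000 bp from any protein-coding start site, and neither CACGTG, the canonical E-box, nor TGAGTCA or TGACTCA, the AP-1 motif, occurred between its ends on either strand. This gave 2049 regions of 16813 on chromosomes 1 to 19 and X. They were 45.4% of the 4514 distal regions and 27.5% of the 7449 regions called in at least 2 libraries. The other 2465 distal regions held an E-box (1458 regions), an AP-1 motif (1428 regions) or both (421 regions), and are called other distal regions. The calls and both motifs were used by the rule, so the absence of the motifs and the minimum of 2 calls are not findings.

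MAFs are primary fibroblasts of adult mice, and BMAL1-ChIP-seq had been made from control and from senescent cultures. Senescent cells had received 20 Gy of X-rays and control cells a sham irradiation. Cells of both groups were treated with 100 nM dexamethasone, a glucocorticoid that synchronizes the clocks of cultured cells, and were collected 12 hours later. There were 3 libraries of each group with a peak list, and 6 input libraries that were not analysed here. The lists held 2794 to 10601 peaks, all from 1 sequencing lane per their headers, with control replicate 3 (10601 peaks) and senescent replicate 2 (9805 peaks) the longest. They gave a position and a score per peak and no reads, so depth is unknown, and a peak missing from a list says nothing about weaker binding there. Nothing in the labels says that the replicates came from separate cultures or animals, so p-values measure the spread between these libraries. With 3 libraries per group an exact permutation test cannot give a p below 0.1, the value reached when the groups do not overlap.

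BMAL1 is a basic helix-loop-helix (bHLH) protein that pairs with CLOCK to drive the circadian clock, and the pair reads the E-box and, less tightly, related hexamers. AP-1 is formed by FOS and JUN proteins, which are abundant in fibroblasts and open distal enhancers. RUNX and TEAD factors also work at distal enhancers of fibroblasts, often together with AP-1.

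The best-ranked regions are shown first, because they show what a strongly called region without a canonical E-box looked like. The 200 bp around the centre of the best-ranked peak are printed for the 2 best-ranked regions of each class, as the plus strand of GRCm38 (mm10), 5′ to 3′. Capitals mark 3 E-box-like hexamers (the E-box variant CACGTT, the variant with a second CG, CACGCG, and the MITF type, CATGTG), the AP-1 variant TGAATCA, and the motifs of RUNX (TGTGGTT), TEAD (ACATTCC) and SP/KLF factors (the GC box GGGCGG), each on either strand. Regions are named for the nearest protein-coding start site. Slc45a1 and Creg2 were called in all 6 libraries, Etv4 and Kmt2e in senescent libraries only, and Dtnbp1 and Gphn in control libraries only.
Slc45a1, chr4:150583603-150583802: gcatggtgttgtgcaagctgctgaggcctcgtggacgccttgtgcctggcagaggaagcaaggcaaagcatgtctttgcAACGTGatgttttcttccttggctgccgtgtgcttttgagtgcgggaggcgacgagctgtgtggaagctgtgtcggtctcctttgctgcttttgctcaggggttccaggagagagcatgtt
Creg2, chr1:39676595-39676794: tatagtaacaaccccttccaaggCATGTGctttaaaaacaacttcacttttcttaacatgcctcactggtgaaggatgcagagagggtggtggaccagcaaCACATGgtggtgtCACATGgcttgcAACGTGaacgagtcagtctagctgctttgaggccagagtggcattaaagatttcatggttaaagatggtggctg
Etv4, chr11:101807465-101807664: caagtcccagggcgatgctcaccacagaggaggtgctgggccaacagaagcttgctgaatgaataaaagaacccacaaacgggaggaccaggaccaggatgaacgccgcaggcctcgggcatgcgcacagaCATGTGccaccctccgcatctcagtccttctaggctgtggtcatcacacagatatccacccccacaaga
Kmt2e, chr5:23394438-23394637: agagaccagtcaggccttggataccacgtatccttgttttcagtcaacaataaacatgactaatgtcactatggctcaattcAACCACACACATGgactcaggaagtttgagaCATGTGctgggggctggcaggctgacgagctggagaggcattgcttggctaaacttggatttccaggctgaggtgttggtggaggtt
Dtnbp1, chr13:44869543-44869742: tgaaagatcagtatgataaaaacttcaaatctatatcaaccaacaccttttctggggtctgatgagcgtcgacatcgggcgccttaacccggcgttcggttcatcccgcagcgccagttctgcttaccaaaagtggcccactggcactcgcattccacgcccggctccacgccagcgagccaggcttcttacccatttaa
Gphn, chr12:78350897-78351096: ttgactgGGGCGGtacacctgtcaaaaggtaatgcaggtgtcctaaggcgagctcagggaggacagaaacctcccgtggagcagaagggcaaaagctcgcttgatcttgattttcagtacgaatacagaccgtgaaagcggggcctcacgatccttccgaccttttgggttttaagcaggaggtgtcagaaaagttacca

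The windows of both regions called everywhere held CACGTT, read as AACGTG on the printed strand. In the Creg2 window it stood in a row with CATGTG, with 6 bases between the 2 hexamers. Both senescent-only windows held CATGTG, and that of Kmt2e also held a RUNX motif that adjoins it. The control-only windows held no E-box-like hexamer of the 3, and the only capitals there are a GC box at Gphn, which lies before the region's start.

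Regions without E-box or AP-1 were called in few libraries. Of the 2049, 1034 (50.5%) were called in just 2 libraries and 509 in 3, against 817 (33.1%) and 670 of the other distal regions. In all 6 libraries 196 (9.57%) were called, below the 14.8% of all regions called in at least 2 libraries. That share was 7.85% for distal regions with only an AP-1 motif and 23.5% for those with an E-box. The mean number of calls was 2.99 without either motif, 3.02 with only an AP-1 motif and 3.83 with an E-box. It was 3.00 at promoters without either motif, so few calls were not particular to these distal regions. Outside the limit of 2 calls lay 4852 distal regions without either motif that were called in 1 library, of which 3086 came from control replicate 3. Among the regions with 2 calls, control replicates 2 and 3 were the pair at 266, control replicate 3 and senescent replicate 2, the longest lists, at 251, and control replicates 1 and 3 at 161. At the limit of 1000 bp, the nearest region inside lay 1005 bp from the start of Fbxo11, with 3 calls, and the nearest outside lay 997 bp from that of Junb, with 2 calls.

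Control-only calls outnumbered senescent-only calls among them when all 6 lists were used, but not without control replicate 2 or 3. Control-only regions, called in 2 or 3 control libraries and in none of the senescent libraries, numbered 596 (29.1%, 95% Wilson interval 27.2 to 31.1), against 13.2% of all regions and 291 (11.8%) of the other distal regions. Senescent-only regions numbered 325 (15.9%, interval 14.3 to 17.5), against 21.3% of all regions and 722 (29.3%) of the other distal regions. Of these, 160 control-only and 98 senescent-only regions were called in 3 of 3 libraries. The order of these counts turned when either of 2 libraries was left out. Without control replicate 3 there were 183 control-only and 534 senescent-only regions, and without control replicate 2 there were 325 and 348, whereas with the 2794 best-scoring peaks of every list there were 375 and 117.

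**Figure D1:**
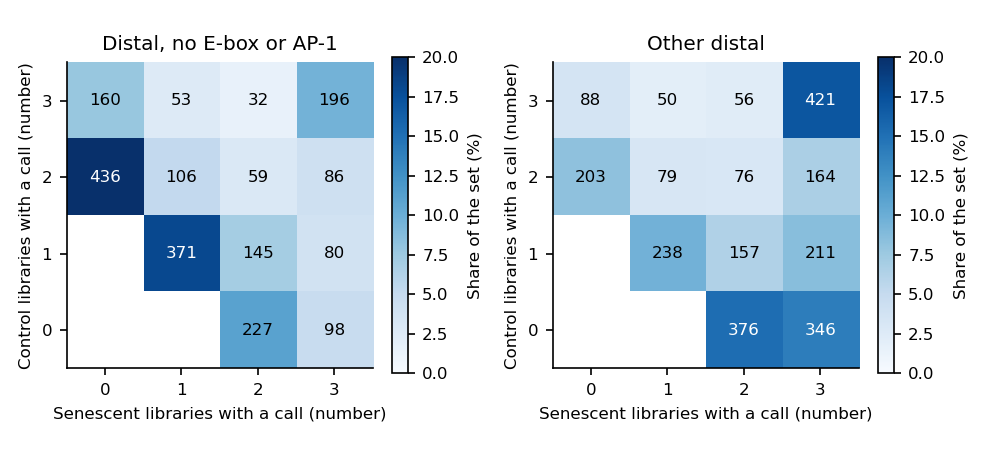
Number of control libraries (vertical axis) and senescent libraries (horizontal axis) with a call, for the 2049 distal regions without E-box or AP-1 (left) and the 2465 other distal regions (right). Each square prints its number of regions and is shaded by its share of the set in percent, and 436 regions of the left grid were called in 2 control libraries and no senescent library, against 203 of the right grid.

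The share of a library's distal regions that lacked both motifs was lower in every senescent library than in any control library. It was 44.3%, 49.4% and 50.1% in control replicates 1, 2 and 3 and 32.2%, 38.8% and 34.6% in senescent replicates 1, 2 and 3. The means were 47.9% ± 3.18 and 35.2% ± 3.32 (SD, n = 3 each), a difference of -12.7 percentage points (p = 0.1 in the exact permutation test, two-sided). The number of such regions did not separate the groups, at 714, 931 and 1648 in control and 714, 1260 and 862 in senescent libraries (difference -152 regions, exact permutation test, p = 0.7), and control libraries had fewer when control replicate 3 was left out (difference 219). Over the same distal regions the share with an E-box was 32.9% ± 4.95 in control and 43.6% ± 4.84 in senescent libraries (n = 3 each, exact permutation test, p = 0.1). The share with only an AP-1 motif was 19.2% ± 2.01 and 21.2% ± 1.62 (n = 3 each, exact permutation test, p = 0.2). At promoters the share of regions without either motif was 49.8% ± 10.2 in control and 47.9% ± 8.24 in senescent libraries, and these overlapped (n = 3 each, exact permutation test, p = 0.8). All these shares and counts are made of the calls that also chose the regions. A region kept through calls of 1 group alone counts in 2 or 3 libraries of that group at once. The p-values of this paragraph therefore describe these lists only.

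To use calls that had no part in choosing the regions, each library was left out in turn, the rule was applied to the other 5, and the regions were searched for a peak of the library left out. Control replicates 1, 2 and 3 held a peak at 28.8%, 36.5% and 69.8% of the regions without E-box or AP-1 and at 33.9%, 34.9% and 59.1% of the other distal regions. Senescent replicates 1, 2 and 3 held one at 31.4%, 51.0% and 35.7% of the regions without E-box or AP-1 and at 57.1%, 75.7% and 61.3% of the others. The difference was therefore near 0 or of either sign in control libraries (-5.09, 1.61 and 10.8 points) and alike in the 3 senescent libraries (-25.7, -24.7 and -25.6 points). Over all 6 libraries it averaged -11.4 points (exact two-sided permutation test of paired differences, p = 0.188), and between the groups it differed by -27.8 points, with no overlap (exact permutation test, p = 0.1, n = 3 each). The 5 lists behind each value were 2 of the left-out library's own group and 3 of the other group. The 6 values also share lists. The contrast between the groups is therefore not independent of the control-only and senescent-only counts, and its p-value describes these values only. Against distal regions with an E-box the mean difference was -18.9 points (n = 6, exact permutation test, p = 0.0938), and against those with only an AP-1 motif it was 0.00576 points, with a range of -11.7 to 13.1 (n = 6, exact permutation test, p = 1).

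**Figure D2:**
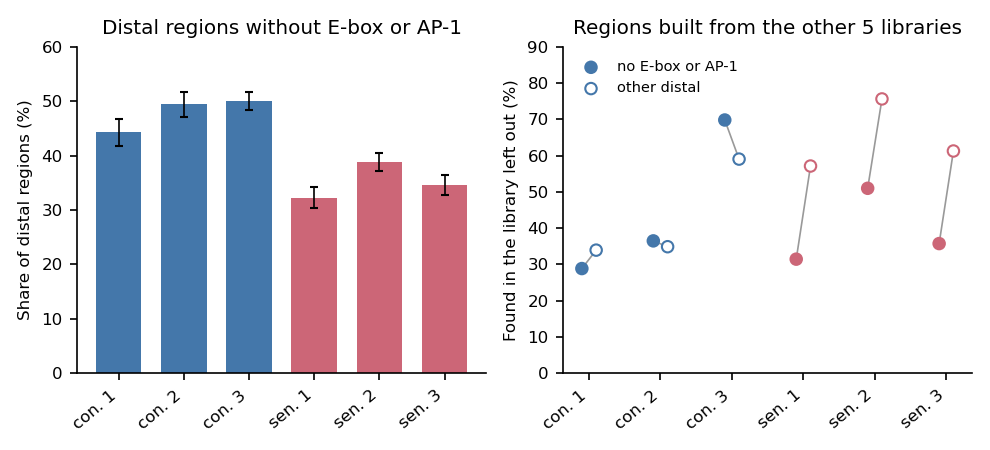
Left, the share of each library's distal regions that lacked E-box and AP-1, in percent, with bars for the 95% Wilson interval, that is for counting error. Right, the percent of regions built from the other 5 libraries at which the library left out held a peak, filled for regions without E-box or AP-1 and open for other distal regions, with control (con.) in blue and senescent (sen.) in red. The 3 senescent libraries found 24.7 to 25.7 points fewer of the regions without either motif.

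Within a library these peaks ranked below those of the other distal regions. A rank of 0% is the best score and 100% the last peak called. The median rank of regions without E-box or AP-1 was 54.7%, 53.2% and 36.5% in control replicates 1, 2 and 3 and 54.7%, 46.8% and 51.5% in the senescent replicates, against 39.9%, 42.4%, 27.9%, 42.4%, 30.2% and 39.9% for the other distal regions. They ranked worse in 6 of 6 libraries, by 12.5 points on average (range 8.58 to 16.6, exact two-sided permutation test of paired differences, p = 0.031, the smallest that 6 libraries allow). The share of regions among the best 10% of a list differed by -8.43 points (range -10.8 to -6.26, n = 6, exact permutation test, p = 0.031). The median of a region's mean rank was 54.3% without either motif, 53.5% with only an AP-1 motif and 41.1% with an E-box. It was 53.2% at promoters without either motif, so the lower rank was not particular to these distal regions. Regions without the motifs were also narrower, with a median width of 325 bp against 379 bp. That median was 342 bp with only an AP-1 motif and 413 bp with an E-box. A narrow region has less room for a motif: regions without either were 208 of 365 distal regions under 200 bp and 92 of 298 (30.9%) of those of 800 bp or more.

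Small RNA genes stood out among the regions called everywhere, which was noticed after the values were seen. Transfer RNA (tRNA) genes, which RNA polymerase III transcribes, and small nuclear RNA (snRNA) genes, which the annotation lists together for spliceosomal RNAs and others such as U3 and 7SK, are not protein-coding, so the rule counts them as distal. Of the 2049 regions, 148 (7.22%) overlapped a gene for a tRNA (126 regions), an snRNA (19 regions) or another small RNA (3 regions) of the RefSeq annotation, against 2.97% of all 7449 regions and 35 (1.42%) of the other distal regions. The share was 13 of 1034 regions called in 2 libraries (1.26%), 6 of 509 called in 3 (1.18%), 19 of 192 called in 4 (9.90%), 27 of 118 called in 5 (22.9%) and 83 of 196 called in all 6 (42.3%). Of all regions called in all 6 libraries, 135 of 1105 (12.2%) overlapped such a gene, with 23 of 421 (5.46%) among the other distal regions and 29 of 488 (5.94%) among promoter regions. Among regions without E-box or AP-1 it was 8 of 325 among senescent-only regions and 1 of 596 among control-only regions. Within 100 bp of the best peak centre a small RNA gene lay at 130 regions (6.34%), against 0.220% of windows 2000 bp away.

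Of the 403 tRNA genes of these chromosomes, 157 (39.0%) lay in a distal region without E-box or AP-1 and 235 (58.3%) in any region called in at least 2 libraries. Genes for all 20 amino acid types of tRNA listed were among them, with shares from 11 of 17 tRNA-Thr genes to 4 of 57 tRNA-Cys genes. Of 996 annotated snRNA genes, 19 (1.91%) lay in such a region. On chromosome 13, where the density was highest at 13.3 regions per 10 Mb, 53 of 156 regions lay at small RNA genes between chr13:21160580 and chr13:23522100, the stretch that also holds the large histone gene cluster. Chromosome X had the lowest density, at 0.489 per 10 Mb.

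The best-ranked of these regions lay 7.07 kb from the start of Arl4d, over the U2 gene Rnu2-10 (chr11:101657832-101659104), and was called in every library, at ranks of 2.72%, 1.96% and 0.641% in control and 6.40%, 6.82% and 4.82% in senescent replicates 1, 2 and 3. The best-ranked at tRNA genes lay 3.18 kb from the start of Borcs6 (chr11:69062072-69063715) and held 4 of them, for tRNA-Ile, tRNA-Thr, tRNA-Ser and tRNA-Trp, at ranks of 6.76%, 4.84% and 1.12% in control and 6.26%, 2.45% and 7.26% in senescent replicates. Others lay over Rnu5g, a U5 gene near Parp16 (mean rank 4.35%), and over 3 U2 genes upstream of Mreg (mean ranks 5.15%, 6.32% and 14.0%). Rnu1a1, a U1 gene (10.4%), and Rn7sk, the 7SK RNA that holds back transcription elongation (18.1%), were also called in all 6 libraries. Near-identical copies elsewhere in the assembly were not searched for at these regions. Whether reads of other copies were placed at these genes was not tested. The gene of the first region and 2 of the second are printed in the direction of transcription, with capitals at GTTCGANTC, letters of the internal promoter (box B) that tRNA genes carry. The tRNA-Ile and tRNA-Trp genes of the second region held 0 exact copies of these letters and are not printed.
tRNA-Thr, chr11:69062744-69062817, minus strand: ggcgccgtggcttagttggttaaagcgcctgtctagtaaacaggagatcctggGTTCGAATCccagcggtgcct
tRNA-Ser, chr11:69063042-69063123, minus strand: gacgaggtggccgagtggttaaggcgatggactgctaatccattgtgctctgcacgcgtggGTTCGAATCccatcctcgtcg
U2 small nuclear RNA 10, chr11:101658238-101658424, plus strand: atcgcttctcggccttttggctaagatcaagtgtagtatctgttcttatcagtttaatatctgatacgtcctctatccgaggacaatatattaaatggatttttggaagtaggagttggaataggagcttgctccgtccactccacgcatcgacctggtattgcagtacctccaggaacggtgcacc

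The regions at small RNA genes ranked well in every library. Their median rank was 32.3%, 18.2% and 9.15% in control replicates 1, 2 and 3 and 26.6%, 17.4% and 24.7% in senescent replicates 1, 2 and 3, against 59.0%, 57.2%, 38.3%, 61.7%, 50.1% and 56.7% for the remaining regions without E-box or AP-1. The difference averaged -32.4 points (range -39.0 to -26.7 over the 6 libraries). It is given as a description with no test, because these regions were singled out for being called in many libraries, and regions called in all 6 had a median mean rank of 24.0% against 53.0% for control-only and 59.9% for senescent-only regions. Of the 148 regions, control replicates called 89, 121 and 133 and senescent replicates 136, 140 and 134, so that the groups did not overlap but control replicate 3 differed from senescent replicate 3 by 1 region. These counts, and the shares made of them, carry no test for the same reason. As a share of each library's regions without E-box or AP-1 they were 11.2% ± 2.70 in control and 15.2% ± 3.98 in senescent libraries. These shares overlapped (n = 3 each). Box B, on either strand, occurred in 58 of the 2049 regions and in 31 of the 196 called in all 6. Without the regions at small RNA genes, 1901 regions were left, of which 113 were called in all 6 libraries, and the share of distal regions without either motif differed by -13.6 points between senescent and control libraries (n = 3 each, exact permutation test, p = 0.1).

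**Figure D3:**
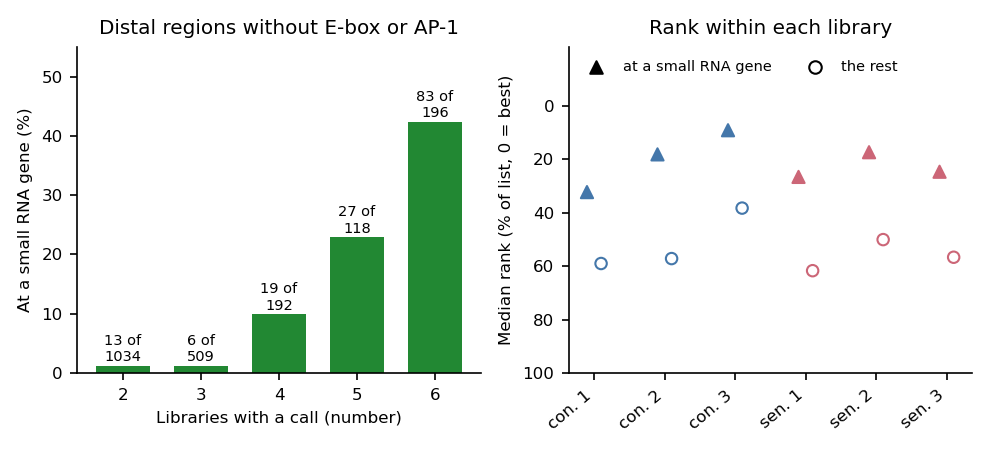
Left, the percent of distal regions without E-box or AP-1 that overlapped a small RNA gene, by the number of libraries with a call, with the counts above each bar. Right, the median rank within each library in percent of its list, with 0 the best and the axis turned so that better ranks are higher, for regions at a small RNA gene (triangles) and the rest (circles), control in blue and senescent in red. The share is near 1% at 2 and 3 calls and 42.3% at 6, and the triangles lie above the circles in all 6 libraries.

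The 5 best-ranked regions called in all 6 libraries lay outside the small RNA genes and ranked ahead of all regions at such genes. The region near Slc45a1, a sugar transporter gene, lay in an intron of Rere (chr4:150582983-150584390) and had a mean rank of 0.552%, from 0.208% in control replicate 3 to 0.931% in control replicate 1. The region near Creg2 lay in an intron of Rfx8 (chr1:39676228-39677184), at ranks of 0.311% to 1.07%. The region near Tsc22d3, the gene of the glucocorticoid-induced leucine zipper, lay 31.9 kb downstream of its start (chrX:140510792-140511691), at ranks of 0.302% to 1.54%, and held 1 copy of each of the 3 E-box-like hexamers. The regions of Igsf8 (chr1:172309580-172310707, mean rank 1.16%) and Nanos3 (chr8:84200658-84202245, mean rank 1.45%) held 7 and 4 copies of CATGTG. These 5 were within the best 3% of every list, and no near-identical copy of any of them was found elsewhere in the assembly (at least 90% identity over at least 100 bp).

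The 5 best-ranked senescent-only regions ranked between 1.91% and 16.7% in the senescent lists. The region near Etv4, which encodes an ETS factor, lay 22.2 kb upstream of its start (chr11:101807233-101807812), at ranks of 3.74%, 1.91% and 4.55% in senescent replicates 1, 2 and 3. The region near Kmt2e, a gene of the mixed-lineage leukemia family, lay between genes (chr5:23394218-23394777), at 5.05%, 4.22% and 6.77%. The region in an intron of Plcxd2 (chr16:45970170-45970624) held 12 copies of CATGTG and ranked at 10.8%, 8.83% and 7.60%. The Lekr1 region (chr3:65658802-65659182) was called in 2 senescent libraries, at 15.2% and 5.39%, and the region in an intron of Arhgap22 (chr14:33247483-33248197) in 3, at 11.1%, 6.47% and 16.7%.

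The 3 best-ranked control-only regions were narrow and not unique in the genome. The region in an intron of Jarid2, nearest to Dtnbp1 (chr13:44869552-44869734, 183 bp), was called in control replicates 1, 2 and 3 at ranks of 8.61%, 10.0% and 4.38% and had 12 near-identical copies elsewhere, the closest at 98.0% identity. The region in an intron of Gphn (chr12:78350914-78351067, 154 bp) had 5 such copies and was called in control replicates 1 and 3, at 9.99% and 5.67%, and the region near Gm8797 (chr3:5860536-5860742, 207 bp) had 4 copies and was called in all 3 control libraries. Reads from one copy can be placed at another, and the part of this in the calls was not tested. Whether the copies belong to a repeated RNA gene such as ribosomal RNA was not tested either, since no full ribosomal RNA sequence was used here. The next 2, in an intron of Stat5b near Ghdc (chr11:100791492-100791837, ranks 11.4%, 14.1% and 2.49%) and 119 kb upstream of Rasgrp1 (chr2:117461580-117462400, ranks 12.6%, 14.5% and 5.75%), had no such copy. Near Col19a1 on chromosome 1, 2 regions called in 3 control libraries and senescent replicate 2 matched the mitochondrial genome at 99% identity or more.

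Hexamers related to the E-box were frequent at the peak centres. Within 100 bp of the best peak centre, CACGTT stood in 7.42% of the 2049 regions (95% Wilson interval 6.36 to 8.63), against 2.56% of windows 2000 bp to either side. CACGCG stood in 4.29% against 1.05%, and CATGTG, which MITF and TFE proteins of the bHLH family also read, in 26.5% (24.6 to 28.5) against 15.98%. The other distal regions held the 3 hexamers, in the same order, at 8.36%, 4.46% and 29.8% of their centres. A pair of these 3 hexamers with 6 or 7 bases between them, the spacing of tandem E-boxes at clock genes, stood in 45 regions (2.20%, interval 1.65 to 2.93) against 0.268% of the distant windows, and in 42 of the other distal regions (1.70%, interval 1.26 to 2.29). This pairing was looked for after the sequences were seen, and pairs inside arrays of CATGTG count as well. CAGCTG, the E-protein type of E-box, stood in 13.1% of centres against 9.39% of distant windows. The rearranged E-box ACCGGT, which has the same bases in another order, stood in 0.976% against 0.683%.

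Other motifs were more frequent at the centre too. The AP-1 variant TGAATCA stood in 8.74% of centres against 2.39% of distant windows, TEAD in 10.2% against 3.34%, RUNX in 11.7% (10.3 to 13.1) against 5.37%, and the GC box in 11.3% against 4.49%. The rearranged RUNX motif TTGGTGT, which has the same bases in another order, stood at 3.12% and 2.78%. Of the 24 motifs of the panel, 23 were more frequent at the centre, the exception being SOX (CCATTGT) at 1.27% against 2.66%, and centres were richer in G and C, with a median of 48.5% against 45.2% in the distant windows. The palindromic glucocorticoid receptor motif stood at 7 centres and the motif of REV-ERB and ROR receptors at 4. At 565 regions (27.6%) none of the panel, rearranged motifs left out, stood within 100 bp of the centre, which says only that these letters are not there.

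**Figure D4:**
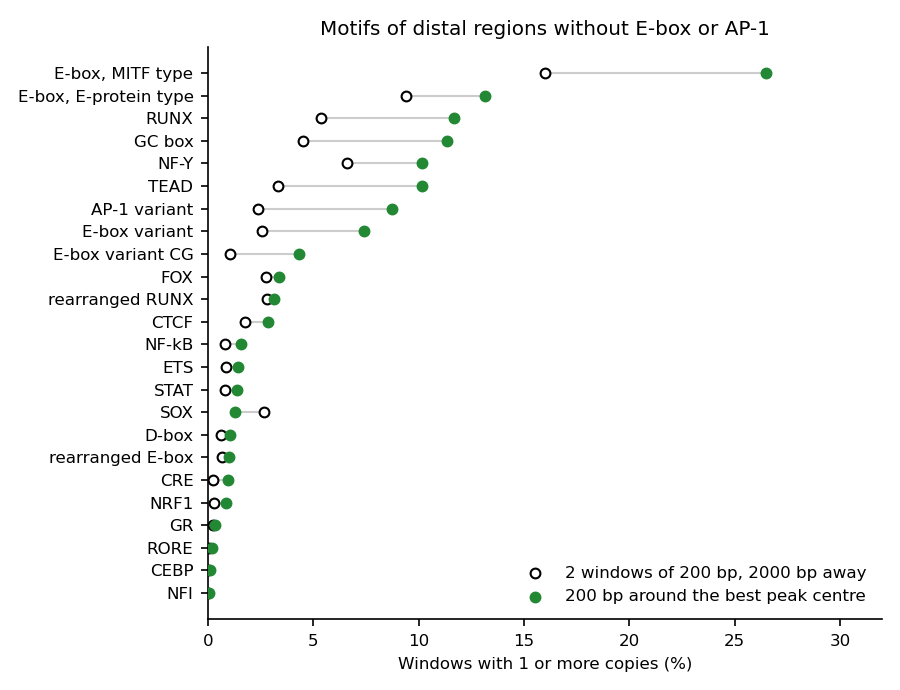
Percent of the 2049 distal regions without E-box or AP-1 with at least 1 copy of a motif within 100 bp of the best peak centre (filled) and in windows of the same length 2000 bp to either side (open), for the 24 motifs of the panel. The MITF type is CATGTG and the E-protein type CAGCTG, and the filled points lie to the right for 23 motifs.

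The motifs differed by class of call. CATGTG stood at 149 of 325 senescent-only centres (45.8%), against 13.7% of their distant windows, and at 122 of 596 control-only centres (20.5%), against 16.9%. At least 3 copies in 1 window occurred in 21 senescent-only regions (6.46%) and 2 control-only regions (0.336%). The tandem pair stood in 18 senescent-only (5.54%), 8 everywhere-called (4.08%) and 4 control-only regions (0.671%). These counts include arrays of CATGTG such as the Tbcel window printed below, and how many are arrays was not counted. RUNX was the reverse, at 96 control-only centres (16.1%, distant windows 5.20%), 26 of 325 senescent-only centres (distant windows 5.85%) and 8 centres of regions called in all 6 (4.08%, distant windows 6.63%). TGAATCA stood at 13.5% of senescent-only and 7.38% of control-only centres, and the GC box at 12.0% and 3.69%. Control-only regions had a median of 44.4% G and C and lay a median of 38.3 kb from a start site, and senescent-only regions had 50.5% and 22.4 kb. Regions of 1 class share the libraries that called them, so these shares carry no test over regions.

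**Figure D5:**
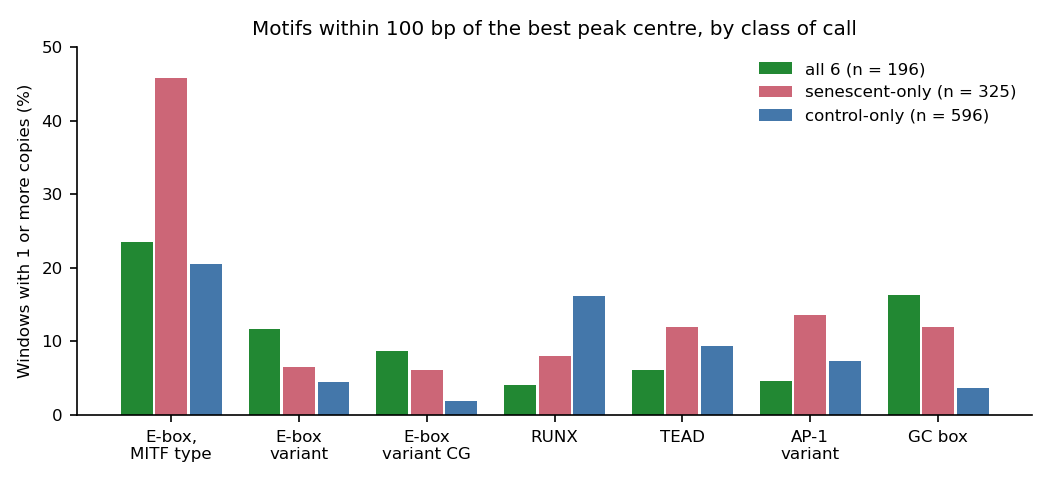
Percent of regions with at least 1 copy of 7 motifs within 100 bp of the best peak centre, for distal regions without E-box or AP-1 called in all 6 libraries (green), in senescent libraries only (red) and in control libraries only (blue). The MITF type is CATGTG, the E-box variants are CACGTT and CACGCG, and the tallest bar is CATGTG in senescent-only regions at 45.8%.

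Sequences with many copies show these patterns. The senescent-only region with most copies of CATGTG, near Tbcel, is printed for the 200 bp around its best peak centre, with capitals at CATGTG on either strand (it was chosen after its values were seen), which overlap where the letters read CACATGTG. Both regions with 3 copies of the RUNX motif, and of the 40 with 2 copies the one with most calls and then the best mean rank, are printed as the 200 bp that hold most copies, with capitals at TGTGGTT on either strand. Klf14 (called in 2 control and 2 senescent libraries) and Slc1a3 (control replicates 2 and 3) had 3 copies each and Sdc4 (called in all 6) had 2, of which 2, 2 and 1 fall in the printed stretch.
Tbcel, chr9:42464321-42464520: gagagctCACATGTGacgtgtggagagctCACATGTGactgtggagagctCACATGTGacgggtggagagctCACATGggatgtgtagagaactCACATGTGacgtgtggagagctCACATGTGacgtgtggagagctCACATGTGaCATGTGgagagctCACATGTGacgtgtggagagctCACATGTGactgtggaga
Klf14, chr6:31126670-31126869: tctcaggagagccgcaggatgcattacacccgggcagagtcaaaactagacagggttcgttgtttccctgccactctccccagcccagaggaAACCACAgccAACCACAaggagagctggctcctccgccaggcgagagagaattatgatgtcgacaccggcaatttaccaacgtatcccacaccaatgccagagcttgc
Slc1a3, chr15:8806553-8806752: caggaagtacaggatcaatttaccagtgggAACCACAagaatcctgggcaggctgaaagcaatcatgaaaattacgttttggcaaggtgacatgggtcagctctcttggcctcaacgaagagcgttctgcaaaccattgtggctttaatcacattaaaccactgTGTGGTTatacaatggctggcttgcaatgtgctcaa
Sdc4, chr2:164432436-164432635: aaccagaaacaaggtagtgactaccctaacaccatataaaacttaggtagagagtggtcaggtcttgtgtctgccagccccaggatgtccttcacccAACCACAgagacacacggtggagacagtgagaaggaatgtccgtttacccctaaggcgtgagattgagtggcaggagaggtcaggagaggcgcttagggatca

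The Tbcel window was a tandem array of a short unit with CATGTG in each, whereas at Klf14 a pair of RUNX motifs lay next to each other with 3 bases between them. Of all 2049 regions, 323 held 1 RUNX motif, 40 held 2 and 2 held 3.

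The test over libraries was made for the share of a library's regions without E-box or AP-1 that held a motif anywhere between their ends. The same calls chose the regions, so the limit given for the share of distal regions holds for these p-values too. RUNX was at 21.3%, 21.8% and 19.7% in control replicates 1, 2 and 3 and at 16.1%, 14.2% and 13.7% in senescent replicates, without overlap (means 20.9% ± 1.09 and 14.7% ± 1.27, difference -6.27 points, n = 3 each, exact two-sided permutation test, p = 0.1, Benjamini-Hochberg adjusted p = 0.32 over the 24 motifs). Within 100 bp of the best peak centre the difference was -3.73 points (n = 3 each, exact permutation test, p = 0.1). In the other distal regions the means were 19.9% and 14.6% (exact permutation test, p = 0.1, n = 3 each), and the 2 differences differed by -0.941 points (exact permutation test, p = 0.3), so the lower share was not shown to be particular to regions without E-box or AP-1. The groups did not overlap for 7 of the 24 motifs (29.2%). Besides RUNX these were CACGCG, the AP-1 variant TGAATCA, the GC box and the motifs of CTCF, ETS factors and NRF1, all higher in senescent libraries, of which CACGCG was at 8.60% ± 1.26 in control and 12.0% ± 2.46 in senescent libraries and TGAATCA at 11.4% ± 0.870 and 13.2% ± 0.737. In the other distal regions CACGCG differed by -0.0907 points and the GC box by -0.659 points, and the differences differed from those in regions without E-box or AP-1 by 3.54 and 5.41 points (n = 3 each, exact permutation test, p = 0.1 for both). That p was not adjusted over the panel and does not single these motifs out. Others reached it too, among them CATGTG (4.54 points) and the rearranged E-box ACCGGT (0.332 points). CATGTG was at 39.6%, 35.8% and 34.8% in control and 45.0%, 38.0% and 44.0% in senescent replicates, and these overlapped (n = 3 each, exact permutation test, p = 0.2). The regions of senescent libraries had more G and C (median 49.3% ± 0.380 against 46.6% ± 0.632), fewer of them lay in introns (38.5% ± 1.81 against 42.2% ± 0.336) and they lay nearer to a start site (18.4 ± 0.547 kb against 24.9 ± 2.02 kb), each without overlap (n = 3 each, exact permutation test, p = 0.1).

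Most of the regions were intergenic (1113, 54.3%) or intronic (878, 42.9%), and 19 lay in coding exons and 39 in untranslated parts of exons. The median distance to a protein-coding start site was 24.2 kb, with 272 regions at most 3000 bp and 363 over 100 kb away. A start site of another gene type lay within 1000 bp of 179 (8.74%), and of 45 of the 196 called in all 6 libraries (23.0%). An E-box lay within 100 bp beyond an end at 67 (3.27%), and 282 (13.8%) lay within 10 kb of a region with an E-box. Within 10 kb of another region of the same kind lay 508 (24.8%).

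The regions were nearest to 1476 of 21679 protein-coding genes (6.81%). Some genes had many, and their classes differed. Wwp2, a ubiquitin ligase gene whose introns hold the miR-140 locus of cartilage, had 11, of which 10 were control-only. Timp3, an inhibitor of matrix proteases, had 9 with 6 control-only, Lox, the enzyme that cross-links collagen, had 8 with 5, and Dnm3 had 7 with 6. Ubash3b had 12, of which 1 was control-only and 11 were called in libraries of both groups, and Thbs1, the matrix protein thrombospondin, had 9 with 7 of that kind. Of the 5 near Tns3, a gene of focal adhesions, 3 were senescent-only. Abt1 (11 regions), Zfp184 (7) and Btn1a1 (5) lie in the stretch of chromosome 13 with the tRNA genes. These genes were picked for their counts after they were seen, and a gene with a wide stretch of genome nearest to it has more room for regions (median 46.9 kb over all genes, 136 kb for Wwp2, 75.2 kb for Lox and 599 kb for Ubash3b).

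Gene lists that fit the tissue were counted the same way. Of 23 genes of collagens and matrix, 13 (56.5%) had at least 1 region nearest to them, against 6.81% of all genes, and the stretches nearest to these genes were wider, with a median of 187 kb. They had 22 regions in all, 8 control-only, 2 senescent-only and 0 called in all 6. Fn1 (fibronectin) had 6, Col3a1 had 3, and the region 2.64 kb downstream of the start of Col3a1 was called in control replicates 2 and 3 and senescent replicate 1, at 72.2%, 24.1% and 72.8%. Of 14 genes of RUNX and chondrogenic factors, 6 (42.9%) had a region (median stretch 321 kb), with 9 regions of which 6 were control-only and 0 senescent-only. The region in an intron of Sox6, a cartilage factor, was called at 37.7%, 15.4% and 11.2% in control replicates 1, 2 and 3, and that in an intron of Runx2, the master factor of bone, at 58.1% in control replicate 3 and 90.9%, 57.2% and 61.2% in the senescent replicates. Of all 2049 regions 29.1% were control-only and 15.9% senescent-only, and counts as small as those of these lists give no comparison between the classes.

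Among 13 genes of AP-1 subunits, 7 (53.8%, against 6.81% of all genes) had regions without an AP-1 motif, 10 regions in all. The median stretch was 38.1 kb, against 46.9 kb over all genes. Shares and stretches of all the lists are descriptions without a test. One lay 2.19 kb downstream of the start of Junb and was called in all 6 libraries, at 37.7% to 96.5%, and others lay near Fosl2 and Fosb. Of 14 genes of the TEAD and YAP pathway, 5 (35.7%, median stretch 109 kb) had 17 regions. Of these, 6 lay at Amotl2, 5 at Vgll3 and 4 at Ccn1, which is a classical target of the pathway. At Ccn1, 2 were called in all 6 libraries, with mean ranks of 32.3% and 41.1%. Of 27 genes of the TGF-beta and BMP pathway, 7 (25.9%, median stretch 180 kb) had 14 regions. The region 60.4 kb upstream of Smad3, a signal transducer of TGF-beta, was called in every library, at 5.01%, 13.7% and 3.24% in control and 21.3%, 11.3% and 13.6% in senescent replicates 1, 2 and 3, and a region nearest to Bmpr1b, in an intron of Unc5c, in the 3 senescent libraries at 94.5%, 10.4% and 32.3%.

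Among 19 core clock and clock output genes, 4 (21.1%, against 6.81% of all genes) had regions without an E-box, 10 in all. The median stretch was 61.2 kb, against 46.9 kb over all genes. Bhlhe40, a repressor of the clock, had 3, of which the one 7.72 kb downstream of the start was called in all 6 libraries at a mean rank of 19.6%. An E-box lay 38 bp beyond an end of that region. Cry2, a core repressor, had 3, and 2 of these in its introns were called in 5 libraries each. Nr1d1 and Nfil3 had 2 each. Of 14 glucocorticoid response genes, 5 (35.7%, median stretch 131 kb) had 7 regions. Tsc22d3 was the best ranked, and Klf9, at 1.73 kb downstream of its start, was also called in all 6 libraries (mean rank 39.0%). Of 23 senescence and secretory genes, 6 (26.1%, against 6.81% of all genes, median stretch 58.4 kb) had 8 regions, 3 of them senescent-only and 0 control-only. Of all 2049 regions 15.9% were senescent-only and 29.1% control-only, and 8 regions give no comparison between the classes. A senescent-only region lay 269 kb from the start of Cxcl12, a chemokine gene, at 48.2%, 33.2% and 55.8% in the senescent libraries. Of 25 fibroblast and mesenchymal factors, 6 (24.0%, median stretch 372 kb) had 7 regions. The region 227 kb from the start of Zeb1 was called in all 6 libraries at a mean rank of 7.81%. Of the 12 genes that the study names at sites of differential binding, 6 had 10 regions, and since the study chose these genes on the same libraries, they are no independent list.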

How the data were processed

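BMAL1-ChIP-seq peak lists of 3 control and 3 senescent libraries were used. The authors mapped read pairs to mm10 with BWA, removed duplicates with Picard, and called peaks with MACS2 for each library separately at an FDR of 1% or less. Replicates were not pooled. The MACS2 version and the use of the inputs as its control are not given in the sources used here, and the antibody is named differently by the labels and the methods. The score the authors deposited was read as −log10 of the q-value, since its smallest value in every list lay just above 2 (2.02 to 2.12). Scores of different libraries are not on a common scale, so the score served only to rank peaks within a list, with ties at their mean rank. The lists hold no reads, so the study's read-based comparison was not repeated.

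Peaks on M and Y (34 of 35822) were left out. Start sites came from GENCODE M21, small RNA genes from the RefSeq annotation, and sequence from GRCm38, which has the same coordinates as mm10 (0 peaks ran past a chromosome end). Motifs were exact patterns on both strands, which leave out weaker forms. Copies were searched with BLAST 2.17.0. Values per library were compared by exact permutation tests with Python 3.11.15 and NumPy 2.4.6, and the steps were tested on simulated lists. Wilson intervals cover counting error only.

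The regions, motifs and gene lists were chosen with earlier results of these data known. Named regions were, for each class of call, the 5 with the lowest mean rank, and up to 3 per gene list. Small RNA genes, tandem hexamers and near-identical copies were added after the values were seen. The alternatives were a stricter score, equal list lengths, 50% overlap, a promoter distance of 3000 bp, at least 3 calls, a wider motif search, all transcript types, the replicate block, each library left out, the motif near the centre, and the mean rank.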

Additional observations from a re-analysis of the deposited data

How the results depend on the processing

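The share of distal regions without E-box or AP-1, the RUNX share among them, their rank and their recall in libraries left out kept their direction under all alternatives run. The number per library turned: 219 more in senescent libraries without control replicate 3 (range over single libraries left out -314 to 219). Ranks differed by 11.4 to 12.9 points with 1 library left out, where 5 libraries allow no p below 0.0625 (exact permutation test), by 8.51 points with the peaks above the median score and by 15.8 without regions at small RNA genes. Without regions at small RNA genes recall differed by -14.7 points (exact permutation test, p = 0.125). Recall differed by -13.4 to -8.06 points, the share by -14.1 to -9.87 points and RUNX by -6.92 to -5.41 points with 1 library left out. With at least 3 calls recall differed by -7.42 points (exact permutation test, p = 0.25). RUNX differed by -3.73 points within 100 bp of the best peak centre.

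Counts of regions follow the lists by construction. With the peaks above the median score, equal list lengths and at least 3 calls there were 804, 888 and 1015 regions, of which 112, 117 and 98 were senescent-only and 226, 375 and 160 control-only. With 1 library left out there were 1330 to 1947 regions, 128 to 534 senescent-only and 183 to 717 control-only. The number fell to 1330 without control replicate 3. Senescent-only regions numbered 128 without senescent replicate 2 and 171 without senescent replicate 3, and control-only regions 325 without control replicate 2, where 348 were senescent-only. With the replicate block the differences were the same (-152 regions, -12.7 points and -6.27 points for RUNX) and 3 pairs allow no p below 0.25 (exact permutation test, p = 1, 0.25 and 0.25). The calls of libraries of the same number, less the group mean, had correlations of 0.0293, -0.113 and -0.123. Control replicate 3 and senescent replicate 2, the longest lists, had 0.226. With group means of 3 libraries and lists of unlike length, these values cannot tell whether libraries of the same number share an origin.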
